A study of Mus musculus with 8 samples.

Results

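Cytosolic ribosomal proteins form the protein part of the ribosomes that translate nuclear-encoded mRNAs. They were taken here as the targets whose mouse symbol is *Rpl* or *Rps* with a number, with or without the ending a, x, l or l1, or *Rplp0*, *Rplp1* or *Rplp2*. This rule found 23 of the 23930 targets measured, 11 named for the small (40S) and 12 for the large (60S) subunit. *Rplp1*, *Rplp2*, *Rpl5*, *Rpl11* and *Rps6*, which the rule would take, had no matched target. The members are therefore only a part of the cytosolic ribosomal proteins, and sums over them are not those of the whole set. Other cytosolic ribosomal proteins were not analysed here. The cells were liver sinusoidal endothelial cells, the fenestrated lining of the liver's capillaries, taken from wild type female Balb/c mice and gated in a cell sorter on dim CD45 with high STAB2 and high CD146. Mice had received 0.05 M citrate buffer (4 libraries) or 150 µg of iron citrate (4 libraries) into a vein 5 h earlier. Each library is titled as 1 mouse, the animals are described only as young, and p-values measure the spread between these libraries. The series is about the signalling from iron to *Bmp6* mRNA, and the members bear on that question only as genes of the translation machinery.

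Ribosomal protein mRNAs are known as a tightly coordinated set. Most begin with a pyrimidine tract through which the kinase mTORC1 and the RNA-binding protein LARP1 set their translation, and each protein is needed at about the same amount. Their genes have left many processed pseudogenes, which are copies of the spliced mRNA set back into the genome and therefore lack introns. A few members have a second, intact paralogue with a narrower range of tissues, such as *Rpl3l* in muscle and *Rpl10l* and *Rpl39l* in testis.

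The assay read each target through 1 short amplicon, so values are given as CPM, the counts scaled to a fixed library total, with no length scaling, on library sizes with TMM factors, and levels of different members are not compared as numbers of mRNA molecules. Counts on targets ran from 7969520 to 11314659 per library. Of the genes behind the sort, *Stab2* was at 1086 ± 154 CPM (SD, n = 4) in the buffer group and 977 ± 131 CPM (SD, n = 4) in the iron group. *Mcam*, which encodes CD146, was at 253 ± 34.8 CPM (SD, n = 4) in the buffer group and 179 ± 11.3 CPM (SD, n = 4) in the iron group. The 1275 targets of 4 gene families whose coding part lies in 1 exon were chosen by symbol and are called silent families here. They are the keratin-associated proteins and the receptors for odours, bitter taste and, of vomeronasal type 1, pheromones. That liver cells express few of them was assumed and not tested. These targets drew 2.40% of counts in citrate buffer replicate 1, 0.972% in citrate buffer replicate 2 and 0.289% to 0.602% in the other 6 libraries. Citrate buffer replicate 1 thus stood apart, and results are given with and without it where it moves them.

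Of the 23 members, 3 have a single exon in GENCODE M21: *Rpl10l*, *Rpl32l* and *Rps4l*. The last is listed as a transcribed pseudogene in RefSeq too, and *Rpl32l* is a coding gene in RefSeq and a processed pseudogene in GENCODE. *Rpl32l* and *Rps4l* stand beside targets for the genes they resemble, *Rpl32* and *Rps4x*. The first 120 bases of each are shown, from the start codon on for *Rpl32* and *Rps4x*. GENCODE gives *Rpl32l* and *Rps4l* no coding part, so their stretches begin at the first atggc of the transcript. Capitals mark the bases at which the 2 sequences of a pair differ. The letters are the sense strand of the GENCODE M21 transcripts on GRCm38, with *Rpl32* on chromosome 6, *Rpl32l* on 10, *Rps4x* on X and *Rps4l* on 6.
Rpl32: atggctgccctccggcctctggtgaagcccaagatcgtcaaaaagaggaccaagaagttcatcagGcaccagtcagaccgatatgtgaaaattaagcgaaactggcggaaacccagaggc
Rpl32l: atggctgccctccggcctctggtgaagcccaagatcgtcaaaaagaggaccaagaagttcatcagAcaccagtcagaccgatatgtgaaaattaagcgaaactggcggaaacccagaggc
Rps4x: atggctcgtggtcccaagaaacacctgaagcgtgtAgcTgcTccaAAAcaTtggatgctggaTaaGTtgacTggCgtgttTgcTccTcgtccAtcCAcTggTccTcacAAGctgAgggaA
Rps4l: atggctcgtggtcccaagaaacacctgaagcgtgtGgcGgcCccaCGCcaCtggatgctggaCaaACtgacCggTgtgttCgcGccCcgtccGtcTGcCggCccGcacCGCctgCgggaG

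In *Rpl32* an intron lies after coding base 96, within the stretch shown, and *Rpl32l* runs through the same place without one. The pair differs at 1 of these 120 bases and is identical at 388 of 399 aligned bases (97.2%). Amplicon reads from one could therefore be counted for the other. *Rps4x* has its first coding junction after base 3 and differs from *Rps4l* at 26 of the 120 bases, with 79.6% identity over 789 aligned bases. Values of *Rpl32* and *Rpl32l* are uncertain to the extent that they share reads. The position of each amplicon was not known here.

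To see which members have near-identical copies elsewhere, every 50-base word of a member's transcript was looked up in the transcripts of all other GENCODE genes on both strands. *Rps2*, a protein of the mRNA entry side of the small subunit, shared 79.0% of its words with 71 other genes, all 71 of them pseudogenes. *Rpl30*, a small 60S protein, shared 76.4%, and *Rps4x*, the X-linked form of a 40S protein, 72.2%. The coding word found in the most other genes is shown for *Rps2* (33 other genes, chromosome 17, coding bases 653 to 702), *Rpl30* (13 other genes, chromosome 15, bases 280 to 329) and, as a contrast, *Rps9* (1 other gene, chromosome 7, bases 210 to 259), again from GENCODE M21 on GRCm38, sense strand, with no letters in capitals because the whole word is shared.
Rps2: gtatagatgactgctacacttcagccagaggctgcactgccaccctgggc
Rpl30: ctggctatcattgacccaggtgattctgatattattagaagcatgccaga
Rps9: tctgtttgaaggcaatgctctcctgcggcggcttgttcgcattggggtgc

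Counts on the members with the most shared words were low, but over all members the relation was weak. *Rps2* had 7, 0, 4 and 1 counts in the buffer libraries (replicates 1 to 4) and 5, 2, 0 and 4 in the iron libraries. *Rps4x* had 7, 2, 3 and 3 counts in the buffer libraries (replicates 1 to 4) and 6, 1, 1 and 3 in the iron libraries. Both were at or near 0 in every library, and neither passed the filter on low counts. HTSeq's line for reads with more than 1 alignment was 0 in all 8 files, and whether such reads were removed, or placed at 1 copy, before counting is not known here, so these low counts do not show low mRNA. The 5 members with over 40% of their words shared, a limit set after the values were seen, were *Rps2*, *Rps4x*, *Rpl30*, *Rpl41* (53.1%) and *Rplp0* (41.8%). They had mean levels of 0.280 to 28.3 CPM. The 15 other members with more than 1 exon ranged from 0.854 to 2436 CPM and include *Rps3*, a 40S protein of the mRNA entry channel, with 2.96% of its words shared. Few shared words did not always go with a high level: *Rpl22*, a 60S protein, shared 5.19% and had a mean of 0.854 CPM. *Rps9*, below the limit, shared 33.0% and had a mean of 1257 CPM. The Spearman correlation of shared words with mean CPM was -0.15 over all 23 members and -0.19 over the 20 with more than 1 exon. Reads of low mapping quality, which HTSeq sets aside, were 2.42% of the reads in citrate buffer replicate 1 and 1.36% to 1.66% in the other files, and whether they hold ribosomal protein reads was not tested.

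**Figure D1:**
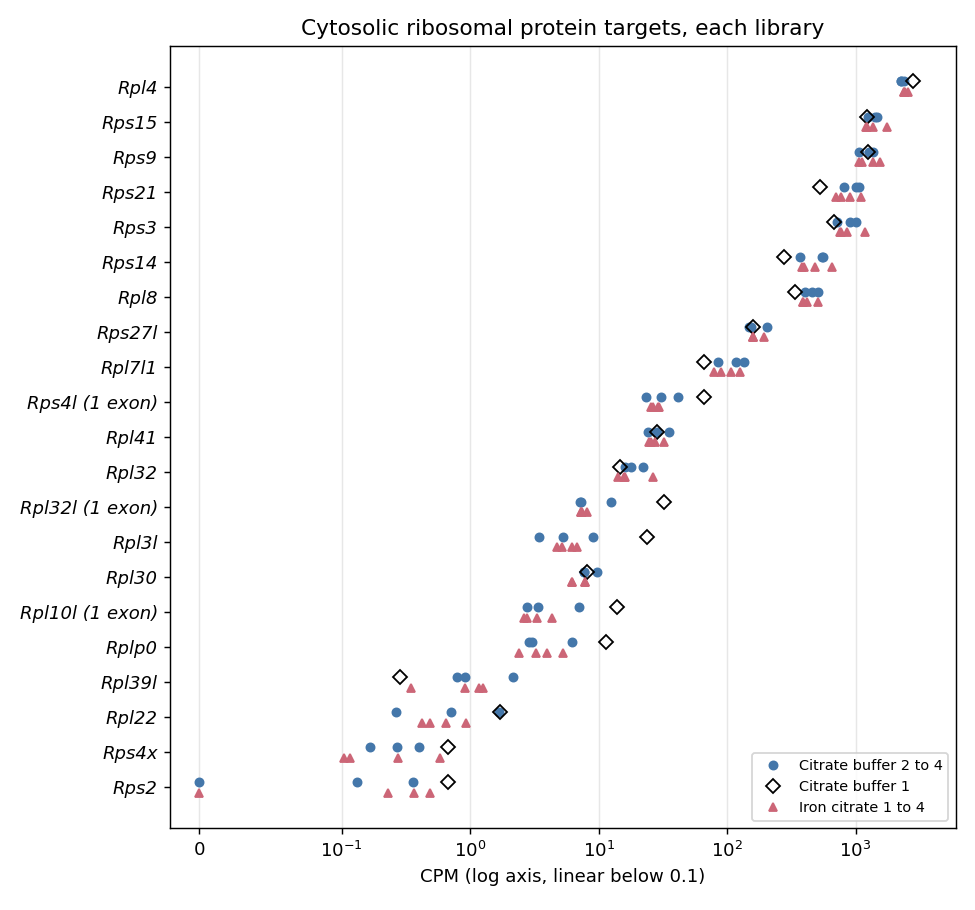
CPM of 21 members (x axis, log scale above 0.1) in each library, with members ordered by mean. Points are single libraries, blue circles for citrate buffer replicates 2 to 4, red triangles for iron citrate and open diamonds for citrate buffer replicate 1. That library lies to the right of the others for the 3 single-exon members and for *Rpl3l* and *Rplp0*. It is also the highest for *Rpl4* and for the untested *Rps2*, *Rps4x* and *Rpl22*.

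Together, the measured members drew 1.02%, 0.905%, 1.01% and 0.952% of counts on targets in citrate buffer replicates 1 to 4. In iron citrate replicates 1 to 4 they drew 0.923%, 0.870%, 1.07% and 0.861%. The group means were 0.971 ± 0.0536% after buffer and 0.931 ± 0.0961% after iron (SD, n = 4 each), the groups overlapped, and the difference of -0.0407 percentage points was smaller than either SD. The small subunit members held 0.654 ± 0.0424% and 0.637 ± 0.0984%, and the large subunit members 0.318 ± 0.0461% and 0.293 ± 0.00726%. The large subunit share was 0.385% in citrate buffer replicate 1 and 0.281% to 0.304% in the other 7 libraries. Its difference between the groups was -0.0246 percentage points with citrate buffer replicate 1 and -0.00210 without it. For all members the difference was -0.0237 without that library, and 0.0250, the other sign, on library sizes scaled by TMM factors. The small subunit difference of -0.0161 likewise became 0.0269 on that scale. *Rpl4*, a 60S protein of the peptide exit tunnel, alone drew 0.215% to 0.323%. Exact binomial intervals around these shares are narrow at this depth (1.02% to 1.03% in citrate buffer replicate 1, at 95%), and they cover counting error only. In sorted bulk cells, fewer cells of a type and less RNA per cell cannot be told apart.

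**Figure D2:**
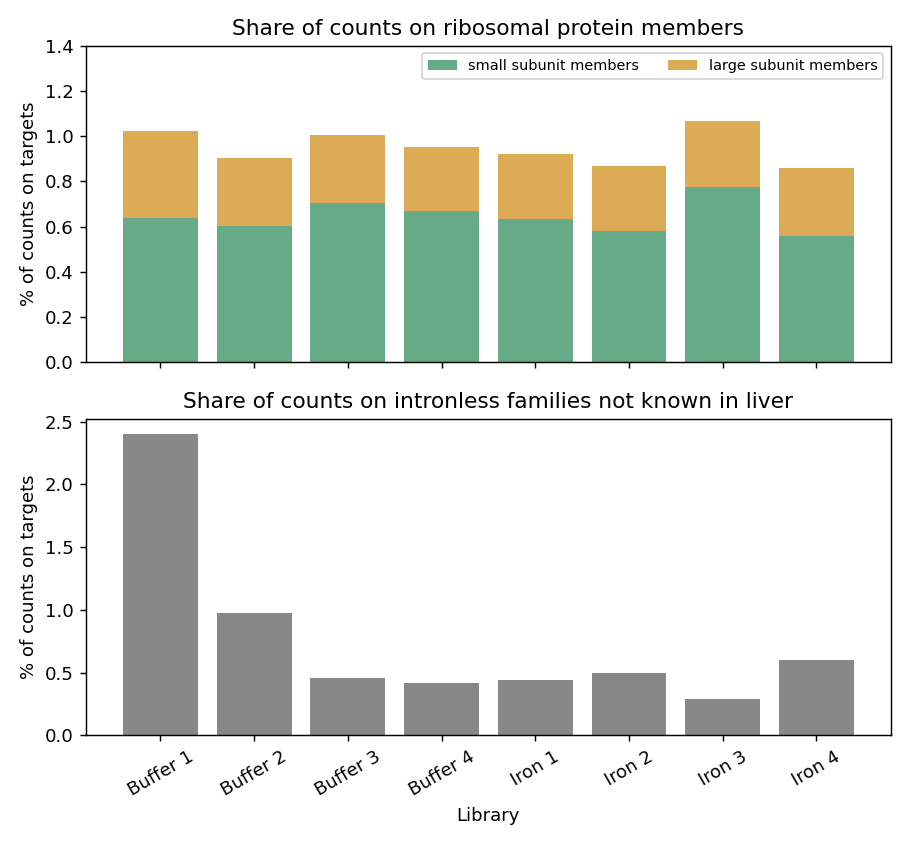
Percent of counts on targets in each of the 8 libraries (x axis), for small and large subunit members stacked (upper panel) and for the silent families (lower panel). The members stay between 0.861% and 1.07%, while the silent families reach 2.40% in citrate buffer replicate 1.

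No member was called after iron citrate. Of the 23, 20 passed the filter on low counts and entered the edgeR quasi-likelihood test over 14601 targets, and 0 of 20 reached an adjusted p under 0.05, against 0.555% (81) of all tested targets. The number of targets called was 259 without citrate buffer replicate 1 and 46 to 75 without any 1 of the other libraries, and no member was among them in any of these fits. By direction, 0 members were called higher, beside 0.527% of targets, and 0 lower, beside 0.0274%. No member passed an unadjusted p of 0.05 either in this edgeR fit (0 of 20), a limit that 14.6% of tested targets passed. The smallest adjusted p of a member was 0.333. DESeq2 called 0 members as well, as did limma-voom. At an unadjusted p under 0.05 DESeq2 had 2 members (*Rpl10l* and *Rpl32l*) and limma-voom 0. The share of all targets at that limit was not taken for DESeq2 and limma-voom, so these counts are not read as a result about the members. Log2 fold changes were above 0 for 10 members and below 0 for 10, with a median of 0.00038 against -0.0097 over all tested targets, and values this close to 0 changed sign with the scaling factors. In none of the 23 did the iron citrate libraries all lie to one side of the buffer libraries, a pattern seen in 8.64% of all tested targets. A list of 20 with a background this low holds few calls in any case, so the count of 0 is not particular to these genes.

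**Figure D3:**
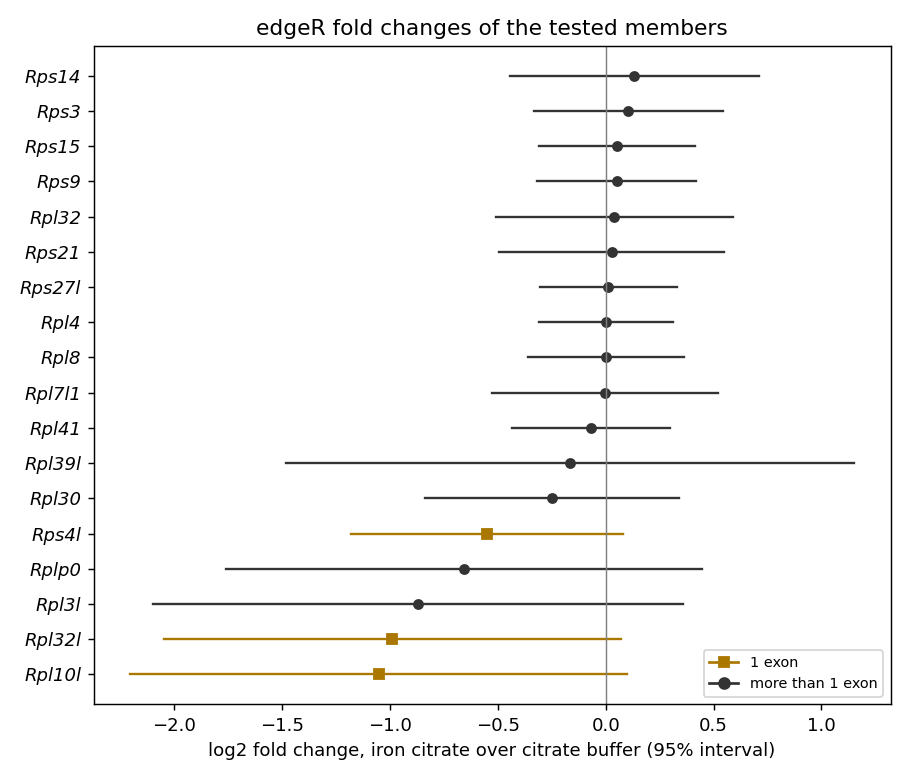
Log2 fold change of iron citrate over citrate buffer (x axis) for 18 tested members, with 95% intervals from the edgeR fit as lines. The abundant members sit within -0.0018 and 0.13, and the 5 lowest values are those of *Rpl3l*, *Rplp0* and the 3 single-exon members (squares), all with intervals that include 0.

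No small subunit member with a mean of at least 100 CPM (called abundant here) differed between the groups by more than the spread between libraries. *Rps15*, a protein of the 40S head, was at 1219.9, 1254, 1417 and 1460.3 CPM in the buffer libraries (replicates 1 to 4) and 1223, 1376, 1752 and 1201 CPM in the iron libraries. *Rps9*, which lines the mRNA entry channel, was at 1261, 1056, 1361 and 1264 CPM in the buffer libraries (replicates 1 to 4) and 1379, 1125, 1546 and 1067 CPM in the iron libraries. Iron citrate replicate 3 was highest in both genes, and the groups overlapped in each. The log2 fold change was 0.053 (SE 0.16, edgeR adjusted p = 0.881) for *Rps15*, with a 95% interval of 0.807 to 1.33 in fold. It was 0.050 (SE 0.16, edgeR adjusted p = 0.889) for *Rps9*, with 0.803 to 1.34 in fold.

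*Rps14*, *Rps21* and *Rps3* varied more from library to library. *Rps21*, a small 40S protein found only in eukaryotes, was at 530.3, 813, 1071 and 999.8 CPM in the buffer libraries (replicates 1 to 4) and 909, 772, 1095 and 704 CPM in the iron libraries. *Rps14*, a protein of the 40S platform whose loss in humans underlies a form of anaemia, was at 278, 369, 548 and 559.9 CPM in the buffer libraries (replicates 1 to 4) and 484, 385, 660.5 and 394 CPM in the iron libraries. Both were lowest in citrate buffer replicate 1, at 0.530 and 0.508 times the median of the other buffer libraries, and highest in iron citrate replicate 3. Their log2 fold changes were 0.028 (SE 0.23, edgeR adjusted p = 0.960) and 0.13 (SE 0.26, edgeR adjusted p = 0.804), with intervals of 0.710 to 1.46 and 0.734 to 1.64 in fold. *Rps3* was at 676, 719.9, 909 and 1009 CPM in the buffer libraries (replicates 1 to 4) and 857, 769, 1179 and 759 CPM in the iron libraries. It had the same lowest and highest libraries, and its log2 fold change was 0.10 (SE 0.20, edgeR adjusted p = 0.798), with 0.793 to 1.46 in fold.

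Among the 60S members measured here, *Rpl4* and *Rpl8* carried most of the counts. *Rpl4* was at 2819, 2264, 2386 and 2271 CPM in the buffer libraries (replicates 1 to 4) and 2374, 2432, 2392 and 2549 CPM in the iron libraries. It was the steadiest tested member, with an SD of 0.102 in log2 CPM over the 8 libraries, and the only abundant one that was highest in citrate buffer replicate 1 (1.24 times the median of the other buffer libraries). Its log2 fold change was 0.0011 (SE 0.14, edgeR adjusted p = 0.996), with an interval of 0.808 to 1.24 in fold. *Rpl8*, which contacts the peptidyl transferase centre and is hydroxylated by the iron-dependent oxygenase RIOX1, was at 339.5, 403, 459 and 507 CPM in the buffer libraries (replicates 1 to 4) and 417, 391, 509.9 and 389 CPM in the iron libraries. Its log2 fold change was -0.00036 (SE 0.162, edgeR adjusted p = 0.999), with 0.778 to 1.28 in fold. Group means differed by far less than the SD in both genes. The 60S targets *Rpl41*, *Rpl32* and *Rpl30* were low. *Rpl41*, a very short basic protein, was at 28.4, 28.3, 24.0 and 35.1 CPM in the buffer libraries (replicates 1 to 4) and 27.4, 24.8, 32.5 and 25.6 CPM in the iron libraries. *Rpl32* was at 14.7, 17.8, 22.3 and 16.2 CPM in the buffer libraries (replicates 1 to 4) and 16.1, 15.9, 26.7 and 14.2 CPM in the iron libraries. *Rpl30* was at 8.19, 7.68, 9.71 and 7.69 CPM in the buffer libraries (replicates 1 to 4) and 6.16, 7.83, 7.77 and 6.25 CPM in the iron libraries. Libraries of both groups overlapped in each. Their log2 fold changes were -0.070 (SE 0.16, edgeR adjusted p = 0.841), 0.040 (SE 0.25, edgeR adjusted p = 0.944) and -0.25 (SE 0.27, edgeR adjusted p = 0.624). *Rpl22* had 18, 20, 8 and 2 counts in the buffer libraries (replicates 1 to 4) and 5, 8, 4 and 7 in the iron libraries, too few for the test.

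Of the paralogues with several exons, *Rps27l*, *Rpl7l1* and *Rpl39l* showed no difference beyond their spread. *Rps27l*, a paralogue of *Rps27* known as a p53 target, was at 159, 149, 154 and 204 CPM in the buffer libraries (replicates 1 to 4) and 159, 160.5, 194 and 158 CPM in the iron libraries. Its log2 fold change was 0.013 (SE 0.14, edgeR adjusted p = 0.970), with 0.811 to 1.26 in fold. *Rpl7l1*, a relative of *Rpl7* that acts in 60S assembly, was at 65.6, 84.6, 135 and 117 CPM in the buffer libraries (replicates 1 to 4) and 90.0, 107, 125 and 79.3 CPM in the iron libraries. It was lowest in citrate buffer replicate 1 and its groups overlapped (log2 fold change -0.0018, SE 0.234, edgeR adjusted p = 0.997). The testis paralogue *Rpl39l* had 3, 11, 24 and 6 counts in the buffer libraries (replicates 1 to 4) and 12, 3, 12 and 10 in the iron libraries, and its interval of 0.358 to 2.22 in fold shows little at this depth.

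The single-exon members behaved unlike the abundant ones from library to library. *Rpl32l* was at 32.5, 12.4, 7.30 and 7.16 CPM in the buffer libraries (replicates 1 to 4) and 7.23, 7.37, 7.25 and 8.08 CPM in the iron libraries. *Rpl10l*, a testis paralogue of *Rpl10*, was at 13.8, 7.01, 3.38 and 2.78 CPM in the buffer libraries (replicates 1 to 4) and 4.30, 3.34, 2.63 and 2.76 CPM in the iron libraries. *Rps4l* was at 66.1, 41.5, 30.6 and 23.5 CPM in the buffer libraries (replicates 1 to 4) and 29.3, 25.5, 26.6 and 29.2 CPM in the iron libraries. Citrate buffer replicate 1 was highest in all 3, at 4.45, 4.08 and 2.16 times the median of the other buffer libraries, and citrate buffer replicate 2 came next. Their log2 fold changes were -0.99 (SE 0.47, edgeR adjusted p = 0.333), -1.05 (SE 0.52, edgeR adjusted p = 0.333) and -0.55 (SE 0.28, edgeR adjusted p = 0.336). Without citrate buffer replicate 1 they were -0.27, -0.45 and -0.21, and without citrate buffer replicates 1 and 2 0.049, 0.068 and 0.026.

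A like profile was found in 2 tested members with several exons, *Rpl3l* and *Rplp0*. *Rpl3l*, with 10 exons and no shared word, was at 24.0, 9.10, 5.25 and 3.45 CPM in the buffer libraries (replicates 1 to 4) and 6.26, 6.80, 4.73 and 5.14 CPM in the iron libraries. *Rplp0*, the base of the ribosomal stalk, with 7 exons and 7 pseudogenes that share a word, was at 11.3, 6.18, 2.85 and 3.05 CPM in the buffer libraries (replicates 1 to 4) and 3.23, 5.30, 2.42 and 3.95 CPM in the iron libraries. Citrate buffer replicate 1 was at 4.57 and 3.72 times the median of the other buffer libraries. Their log2 fold changes were -0.87 (SE 0.55, edgeR adjusted p = 0.395) and -0.66 (SE 0.49, edgeR adjusted p = 0.472), and -0.069 and -0.13 without citrate buffer replicate 1. The 3 untested members have several exons as well. *Rps2*, *Rps4x* and *Rpl22* had their highest CPM in citrate buffer replicate 1 too, at 5.03, 2.50 and 2.41 times that median, on 7, 7 and 18 counts. In all, 9 members were highest in that library, *Rpl4* among them. The abundant members other than *Rpl4* had ratios of 0.508 to 1.03.

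Named copies outside the rule had the same shape. *Rpl31-ps12*, which has 1 exon and is a pseudogene by its name, was at 49.0, 17.7, 7.84 and 9.41 CPM in the buffer libraries (replicates 1 to 4) and 8.31, 8.52, 8.51 and 13.0 CPM in the iron libraries. *Rps19-ps3* and *Rps15a-ps4* were at 42.6 and 22.0 CPM in citrate buffer replicate 1, against 7.46 to 18.2 and 4.52 to 10.9 CPM in the other 7 libraries. None of the 3 was called (edgeR adjusted p = 0.333, 0.333 and 0.333). The high libraries of the single-exon members and of these copies were the libraries with the most silent-family counts. The same libraries were high for *Rpl3l* and *Rplp0*, which have several exons. Genomic DNA in an RNA sample can be read from a target without introns, and its part in these values was not tested. *Rpl36al*, a retrogene of *Rpl36a*, was at 21.7 CPM in citrate buffer replicate 1 and 8.21 to 18.3 CPM in the others.

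**Figure D4:**
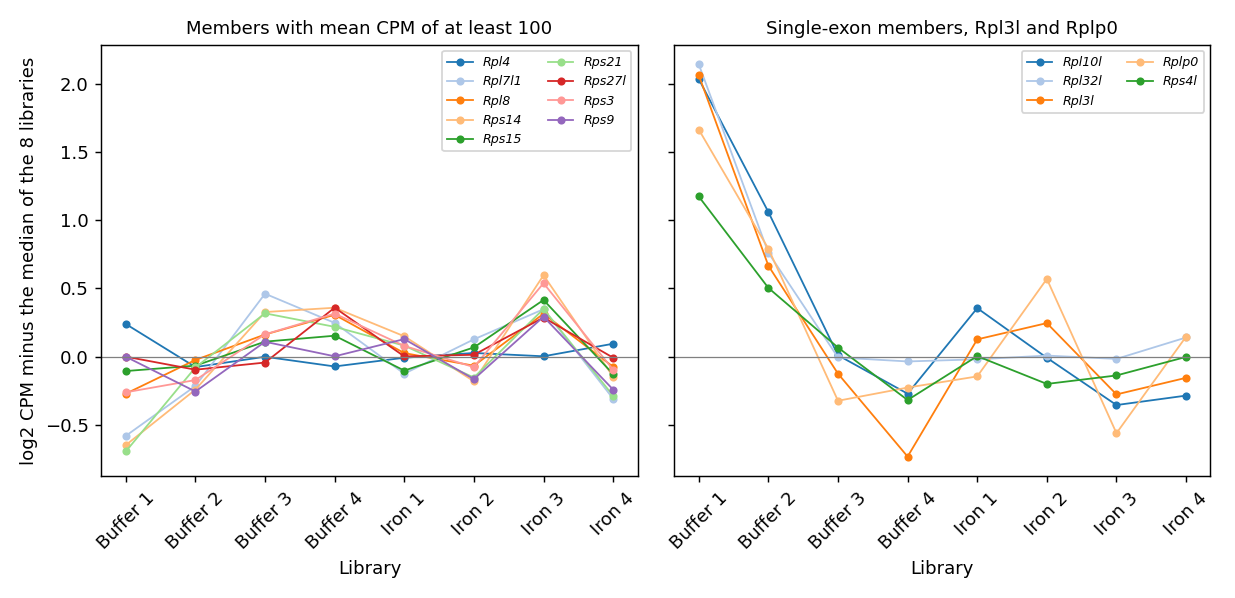
Log2 CPM minus the median of the 8 libraries (y axis) by library (x axis), 1 line per member, for 9 members with a mean of at least 100 CPM (left) and for the single-exon members with *Rpl3l* and *Rplp0* (right). On the right all 5 lines peak in citrate buffer replicate 1, and on the left most peak in iron citrate replicate 3.

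The extremes of the 11 abundant members fell in the same few libraries. Iron citrate replicate 3 was the highest library for 8 of them, and citrate buffer replicates 1 and 2 were the lowest for 6 and 4. Their median deviation from each gene's own mean, in log2 CPM, was -0.22, -0.16, 0.12 and 0.25 in citrate buffer replicates 1 to 4. It was -0.021, -0.11, 0.35 and -0.16 in iron citrate replicates 1 to 4. On these TMM-scaled values iron citrate replicate 3 thus lay 1.27-fold above and citrate buffer replicate 1 at 0.856 of the mean.

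Within each group, the order of these medians was the exact reverse of the order of the silent-family shares. After buffer the shares were 2.40%, 0.972%, 0.455% and 0.414%. After iron they were 0.438%, 0.501%, 0.289% and 0.602%, with iron citrate replicate 3 lowest. This pattern was noticed after the values were seen, and the medians are on TMM-scaled library sizes. The TMM factors of citrate buffer replicates 1 to 4 were 1.15, 1.06, 0.994 and 0.948, in the order of their silent-family shares. Those of iron citrate replicates 1 to 4 were 0.974, 0.965, 0.940 and 0.985, where replicates 1 and 2 were not in that order. The medians depend on these factors, and how far the factors set the order was not tested. On unscaled totals the abundant members together drew 0.999%, 0.891%, 0.995% and 0.942% in citrate buffer replicates 1 to 4, which is not the reverse order. In iron citrate replicates 1 to 4 they drew 0.913%, 0.860%, 1.06% and 0.851%, which is. Taken singly, 2 of the 11 abundant members, *Rpl8* and *Rps3*, were in that exact reverse order in both groups, as were 2.24% of all tested targets and 4.24% of the 2007 tested targets with a mean of at least 100 CPM. *Rpl4*, highest in citrate buffer replicate 1, went the other way there. Where the silent-family share entered the edgeR fit as a covariate, the median log2 fold change of the tested members was -0.11 and 0 of 20 were called. There *Rpl32l*, *Rpl10l* and *Rps4l* had log2 fold changes of 0.00040, -0.080 and -0.028, and *Rps21* and *Rps14* had -0.31 and -0.24 (edgeR adjusted p = 0.249 and 0.424).

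**Figure D5:**
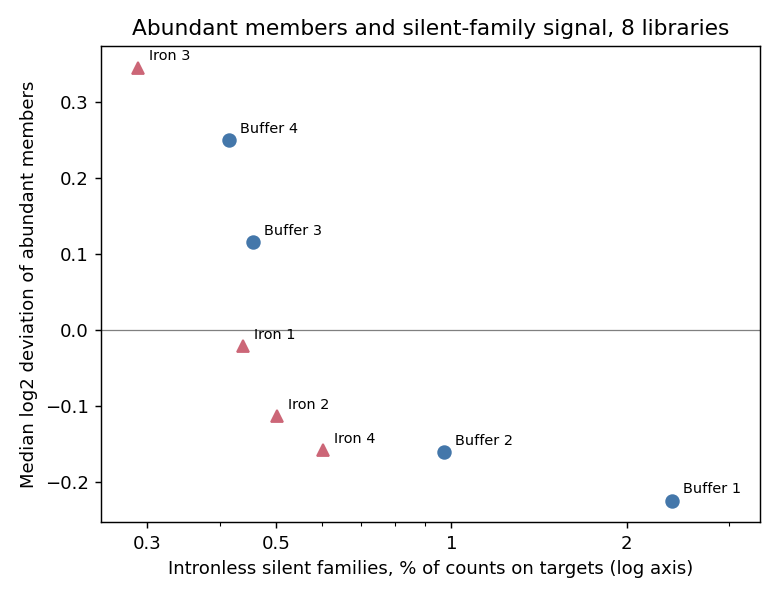
Median log2 deviation of the 11 abundant members in TMM-scaled CPM (y axis) against the silent-family share of counts on unscaled totals (x axis, log scale). There is 1 point per library, circles for citrate buffer and triangles for iron citrate. The points run from iron citrate replicate 3 at upper left to citrate buffer replicate 1 at lower right.

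Genes around the ribosome were read from lists. Of 12 tested elongation factors and other mRNAs with a pyrimidine tract, 0 were called (median log2 fold change 0.0021). *Eef1a1*, which delivers aminoacyl-tRNA to the ribosome, had a log2 fold change of -0.060 (SE 0.25, edgeR adjusted p = 0.915) and its exchange factor subunit *Eef1b2* -0.15 (SE 0.16, edgeR adjusted p = 0.647). None of 15 initiation factors was called (median 0.14), with the start-site factor *Eif1ax* at 0.14 (SE 0.20, edgeR adjusted p = 0.734) and *Eif2s1*, the alpha subunit of eIF2, at 0.13 (SE 0.15, edgeR adjusted p = 0.657). Nor was any of 35 biogenesis factors called (median 0.15), among them the box C/D snoRNP proteins *Nop56* at 0.036 (SE 0.19, edgeR adjusted p = 0.935) and *Nop58* at 0.061 (SE 0.22, edgeR adjusted p = 0.901). The 12 genes of RNA polymerase I (median 0.012), 9 ribosomal protein chaperones (median 0.088) and 14 quality control factors (median 0.24) also held 0 calls. The log2 fold changes of the polymerase's largest subunits were 0.020 (*Polr1a*) and 0.48 (*Polr1b*). They were 0.44 and -0.0085 for the chaperones *Heatr3* and *Aamp*, and -0.12 and 0.37 for *Zfp598*, a ligase that marks collided ribosomes, and *Gigyf2*, a repressor of initiation. At an unadjusted p under 0.05 these 6 lists held 1, 3, 3, 0, 4 and 2 genes, beside 14.6% of all tested targets. *Rack1*, a 40S scaffold outside the symbol rule, was at 1037 ± 235 CPM (SD, n = 4) in the buffer group and 1208 ± 239 CPM (SD, n = 4) in the iron group, with a log2 fold change of 0.22 (SE 0.21, edgeR adjusted p = 0.573).

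Of 17 genes that control these mRNAs 0 were called and 4 had an unadjusted p under 0.05, beside 14.6% of all tested targets (edgeR, median log2 fold change 0.17). The kinase *Mtor* had a log2 fold change of 0.090 (SE 0.17, edgeR adjusted p = 0.793) and its partner *Rptor* 0.22 (SE 0.15, edgeR adjusted p = 0.434). The RNA-binding protein *Larp4*, which has the smallest adjusted p of the list and was singled out after its value was seen, was at 48.4 ± 2.52 CPM (SD, n = 4) in the buffer group and 69.5 ± 6.78 CPM (SD, n = 4) in the iron group, with a log2 fold change of 0.52 (SE 0.12, edgeR adjusted p = 0.147). None of 12 enzymes that act on the ribosome or on translation through iron or an iron-sulfur cluster, or belong to their pathways, was called, and 0 had an unadjusted p under 0.05 (median 0.15). The recycling ATPase *Abce1* had 0.092 (SE 0.16, edgeR adjusted p = 0.786) and the *Rpl8* hydroxylase *Riox1* -0.26 (SE 0.16, edgeR adjusted p = 0.387). In the p53 branch that senses free 60S proteins, 3 of 10 genes had an unadjusted p under 0.05 (edgeR, median log2 fold change 0.27). *Cdkn1a*, a cell cycle inhibitor and p53 target, was the 1 called gene of the 10, beside 0.555% of all tested targets, and was already known from these data. It rose, with a log2 fold change of 1.01 (SE 0.15, edgeR adjusted p = 0.0120). Its edgeR adjusted p was 0.0524 without citrate buffer replicate 3, 0.0533 without iron citrate replicate 3 and 0.0567 without iron citrate replicate 4, above the threshold of 0.05, and it stayed called without any 1 of the other 5 libraries. With upper-quartile factors it was 0.0624 and with library totals 0.0569, also above the threshold. Of 8 factors known to bind ribosomal protein promoters 0 were called and 2 had an unadjusted p under 0.05 (edgeR, median log2 fold change 0.091). The ETS factor *Gabpa* had -0.20 (SE 0.13, edgeR adjusted p = 0.397) and *Yy1* 0.037 (SE 0.20, edgeR adjusted p = 0.934).

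The summed level of the 10 sinusoidal endothelial markers was 13289.8 to 27119 CPM after buffer and 21132 to 23526 CPM after iron, lowest in citrate buffer replicate 1. The 7 Kupffer cell markers summed to 47.1 to 261 CPM after buffer and 151 to 444 CPM after iron, with the lowest value also in citrate buffer replicate 1. All 7 had a log2 fold change above 0 (0.34 to 0.73). The 8 hepatocyte markers summed to 467 to 839 CPM after buffer and 355 to 743 CPM after iron. For 6 markers of T, NK and B cells the sums were 408 to 594 CPM after buffer and 432 to 473 CPM after iron (highest in citrate buffer replicate 1). For 7 stellate cell markers they were 209.5 to 602 CPM after buffer and 362 to 569 CPM after iron (lowest in citrate buffer replicate 1). For 5 erythroid and platelet markers they were 19.9 to 33.5 CPM after buffer and 19.9 to 29.6 CPM after iron (highest in citrate buffer replicate 1). No gene of these 6 lists was called, no marker was at 0 in any library, and their part in the members' values was not tested.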

How the data were processed

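Sorted sinusoidal endothelial cells were profiled with an Ion AmpliSeq mouse transcriptome kit, per the labels' protocols. The authors deposited whole-number read counts per RefSeq target, 1 file per library. HTSeq 0.6.0 and DESeq2 1.18.1 are named in the submitters' processing notes, and no source used here gives the aligner or the genome build. HTSeq's summary lines (2.15% to 4.60% of reads) were left out. Accessions were matched to symbols with RefSeq GRCm38.p6 (18128 by version, 4324 without it) and GENCODE M21 (110), and 1368 had no match. All 8 libraries were compared with edgeR 4.0.16 in R 4.3.3 (filterByExpr, TMM factors, robust quasi-likelihood F-test, Benjamini-Hochberg over 14601 targets, threshold 0.05), checked on simulated counts. Standard errors were derived from the F statistic. Shares of counts used unscaled totals and have no test. The design text speaks of 5 samples per group, of which 4 were analysed here. Every pair of libraries differed by more than sampling noise (chi-square per degree of freedom at least 8.47).

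Members and gene lists were chosen with earlier results of these data known. The rule for named genes took a fixed list (stalk proteins, paralogue pairs and proteins with known signalling or modification), called members, the members with extreme fold changes, levels, spread or ratios in citrate buffer replicate 1, ribosomal proteins outside the symbol rule, and from each pathway list its called genes or else its first 2 tested ones. Since few members were measured, nearly all are named (values of 2 are not reported here and enter the sums, counts and medians over the members), and genes of the rule with no target here were not analysed here. Alternatives were other scaling factors, DESeq2 1.42.0, limma-voom 3.58.1, other filters, the replicate block, the silent-family covariate, other denominators and leaving out libraries.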

Additional observations from a re-analysis of the deposited data

Results flagged for a closer look

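In 3 of 48 groups of 4 values looked at, 1 iron citrate library lay apart from the other 3 by more than Dixon's 95% limit, and chance alone gives about 1 in 20. For *Rpl32* it was iron citrate replicate 3, at 26.7 CPM against 14.2 to 16.1 in the others. For *Rps27l* it was iron citrate replicate 3 too, at 194 CPM against 158 to 160.5. For *Rpl32l* it was iron citrate replicate 4, at 8.08 CPM against 7.23 to 7.37.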

How the results depend on the processing

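No member was called in any of the 18 alternative fits, in which the smallest adjusted p was 0.158 (*Rps4l*, edgeR without citrate buffer replicate 4), and the median log2 fold change of members stayed between -0.12 and 0.042. Some passed an unadjusted edgeR p of 0.05: *Rpl10l*, *Rpl32l* and *Rps4l* without citrate buffer replicate 3, and these with *Rpl3l* without citrate buffer replicate 4. *Rpl7l1* and *Rps21* did so with the silent-family covariate, and *Rpl32l* with no low-count filter. *Rpl10l* and *Rpl32l* did so with DESeq2, and no member reported singly did in the other fits. The share of all targets at that limit was not taken for these alternatives, so their counts of members have no background. The share differences moved by less than the SD pooled over both groups in every alternative run, but their sign did not hold. On library sizes scaled by TMM factors the difference became 0.0250 percentage points for all members, 0.0269 for the small subunit and -0.00189 for the large subunit. The small subunit difference was also above 0 without citrate buffer replicate 3 (0.000315), iron citrate replicate 2 (0.00296) or iron citrate replicate 4 (0.0107), and the large subunit difference without citrate buffer replicates 1 and 2 (0.000725). The number of all targets called was 81 and became 365 with DESeq2, 289 with limma-voom, 43 with the replicate block, 330 with the silent-family covariate, 281 without citrate buffer replicates 1 and 2, and 46 to 259 when 1 library was left out, the highest without citrate buffer replicate 1. Same-numbered libraries did not deviate together in every pair (correlations of -0.000298, 0.176, 0.609, -0.315), and 2 of 8 libraries correlated best with their own number, so the numbers were not taken as pairs. Library totals and upper-quartile factors shifted the median of all targets to -0.11 and -0.12. Uncalled member fold changes, of any size in the fit reported above, changed sign in 83 of 320 values. The log2 fold changes with the other sign were, without citrate buffer replicates 1 and 2 0.068 (*Rpl10l*), -0.086 (*Rpl32*), 0.049 (*Rpl32l*), 0.38 (*Rpl3l*), 0.33 (*Rplp0*), -0.20 (*Rps14*), -0.053 (*Rps15*), -0.25 (*Rps21*), -0.092 (*Rps27l*), -0.11 (*Rps3*), 0.026 (*Rps4l*) and -0.038 (*Rps9*); with upper-quartile factors -0.080 (*Rpl32*), -0.12 (*Rpl4*), -0.061 (*Rps15*), -0.074 (*Rps21*), -0.098 (*Rps27l*), -0.0049 (*Rps3*) and -0.068 (*Rps9*); with library totals -0.062 (*Rpl32*), -0.11 (*Rpl4*), -0.047 (*Rps15*), -0.055 (*Rps21*), -0.084 (*Rps27l*) and -0.054 (*Rps9*); with limma-voom -0.17 (*Rpl32*), 0.071 (*Rpl3l*), 0.011 (*Rplp0*), -0.11 (*Rps14*), -0.051 (*Rps15*), -0.18 (*Rps21*), -0.029 (*Rps27l*) and -0.053 (*Rps3*); with the silent-family covariate -0.20 (*Rpl32*), 0.00040 (*Rpl32l*), 0.29 (*Rpl3l*), 0.24 (*Rplp0*), -0.24 (*Rps14*), -0.086 (*Rps15*), -0.31 (*Rps21*), -0.086 (*Rps27l*), -0.13 (*Rps3*) and -0.041 (*Rps9*); with relative log expression factors -0.027 (*Rpl4*), -0.0011 (*Rps21*) and -0.017 (*Rps27l*); with DESeq2 -0.027 (*Rpl4*), -0.0011 (*Rps21*) and -0.016 (*Rps27l*); with a mean CPM of at least 5 -0.028 (*Rpl4*) and -0.012 (*Rps27l*); with the replicate block 0.033 (*Rpl7l1*) and 0.0069 (*Rpl8*); with no low-count filter 0.0052 (*Rpl8*). Over the fits without 1 library the ranges were -0.20 to 0.17 (*Rpl32*), -0.48 to 0.095 (*Rpl39l*), -0.033 to 0.078 (*Rpl4*), -0.16 to 0.037 (*Rpl41*), -0.16 to 0.17 (*Rpl7l1*), -0.096 to 0.095 (*Rpl8*), -0.060 to 0.27 (*Rps14*), -0.076 to 0.12 (*Rps15*), -0.14 to 0.15 (*Rps21*), -0.062 to 0.13 (*Rps27l*), -0.059 to 0.22 (*Rps3*) and -0.051 to 0.13 (*Rps9*). *Cdkn1a* kept its direction throughout, with an adjusted p of 0.0624 with upper-quartile factors, 0.0569 with library totals and 0.0928 with the replicate block. Counting depth limits *Rps2*, *Rps4x*, *Rpl22* and *Rpl39l*, and the cause of these changes was not tested.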
